A study of Mus musculus with 24 samples.

Results

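The Hox genes encode homeodomain transcription factors that lie in 4 clusters and mark position along the body axis and the limb. All genes whose symbol was Hox, a cluster letter from a to d and a number were taken from the deposited gene table, which gave 39 of 55487 genes. The 11 *Hoxa* genes lie on chromosome 6 (52155590 to 52260880), the 10 *Hoxb* genes on chromosome 11 (96194316 to 96368256), the 9 *Hoxc* genes on chromosome 15 (102921103 to 103036852) and the 9 *Hoxd* genes on chromosome 2 (74668310 to 74765142), on GRCm38. The questions were which paralogues each of 2 cell lines expressed and whether either of 2 drugs changed them.

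The series holds 24 libraries of polyadenylated RNA from mouse embryonic fibroblasts (MEFs), which are usually grown from the trunk and limbs of embryos and so start as a mixture of body positions. One line was wild type (WT), and the other lacked the transcription factors TFEB and TFE3 (*tfeb tfe3* DKO). Each line was treated with 0.1% DMSO as vehicle, with 100 nM torin1, an inhibitor of MTOR, or with 10 μM MK-8722, an activator of AMPK, with 4 libraries in each of the 6 groups. The duration of treatment before sequencing is not stated in the sources used here, and within a line each of the 4 libraries of a group came from another passage. Each genotype was represented by 1 line, so that a difference between *tfeb tfe3* DKO and WT cannot be told apart from a difference between lines in their embryo of origin or their history in culture.

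Total counts ranged from 24668921 to 33332562 per library, and the RNA integrity number in the labels was 9.7 or above apart from MK-8722 replicate 3 of *tfeb tfe3* DKO (7.9). *Tfeb* was at a median of 17.5 CPM (counts scaled by the library total after TMM adjustment) in WT and 1.96 CPM in *tfeb tfe3* DKO libraries, while *Tfe3* was at 99.3 and 116 CPM, so that *Tfeb* RNA was low in the line labelled as lacking it while *Tfe3* RNA was not, and the RNA level does not check an edit that leaves the transcript. Of 12 fibroblast markers, 10 reached 1 TPM (transcript level scaled by length and depth) in every WT library and 9 in every *tfeb tfe3* DKO library, and *Thy1*, a surface marker of many fibroblasts, was at 4.60 ± 1.16 TPM in WT under DMSO but had no counts in *tfeb tfe3* DKO under DMSO. The summed level of 6 endothelial markers was 18.8 to 38.8 TPM in WT and 11.1 to 16.003 TPM in *tfeb tfe3* DKO libraries, that of 6 epithelial markers 34.4 to 44.8 and 56.6 to 93.6 TPM, and that of 6 haematopoietic markers 2.32 to 22.1 and 5.72 to 17.2 TPM, and the part of such cells in the results below was not tested. Among the 4 libraries of a group the coefficient of variation of CPM for Hox genes with a mean of at least 100 counts was 0.869% to 23.6%, with a median of 7.93%. For bulk RNA, fewer cells with a given Hox gene and less of its RNA per cell cannot be told apart.

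Within each cluster the genes are ordered by paralogue number, and in embryos those with low numbers are active in anterior and those with high numbers in posterior parts of the trunk. In limbs, groups 9 to 13 of the *Hoxa* and *Hoxd* clusters pattern the segments from shoulder or hip to the digits, with *Hoxa13* and *Hoxd13* active in the hand and foot plates and in the genital tubercle. Fibroblasts keep much of the Hox pattern of their site of origin in culture, where Polycomb proteins hold silent genes off and trithorax proteins keep active genes on, and Hox proteins bind DNA together with cofactors of the TALE class (PBX, MEIS and PKNOX).

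RefSeq promoter windows, 250 bases before to 50 after a gene's start on GRCm38.p6, were at hand for 22 of the 39 Hox genes as 24 windows. Shown are the 250 bases before the start of the 4 Hox genes called higher in the *tfeb tfe3* DKO line, given 5′ to 3′ on the gene's strand, with the letters CACGTG in capitals. This E-box, which reads the same on both strands, is the core of the motif bound by TFEB and TFE3.
Hoxa11, chr6:52245811-52246060, minus strand: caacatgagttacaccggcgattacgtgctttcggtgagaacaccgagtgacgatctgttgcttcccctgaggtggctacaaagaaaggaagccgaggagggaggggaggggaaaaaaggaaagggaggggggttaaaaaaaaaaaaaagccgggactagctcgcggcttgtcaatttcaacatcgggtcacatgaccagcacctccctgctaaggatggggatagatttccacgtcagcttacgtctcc
Hoxa13, chr6:52260881-52261130, minus strand: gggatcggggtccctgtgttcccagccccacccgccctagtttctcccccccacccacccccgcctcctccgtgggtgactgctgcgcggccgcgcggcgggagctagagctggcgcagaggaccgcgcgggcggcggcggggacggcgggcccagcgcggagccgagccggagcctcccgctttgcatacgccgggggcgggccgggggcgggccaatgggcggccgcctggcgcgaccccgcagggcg
Hoxd11, chr2:74682073-74682322, plus strand: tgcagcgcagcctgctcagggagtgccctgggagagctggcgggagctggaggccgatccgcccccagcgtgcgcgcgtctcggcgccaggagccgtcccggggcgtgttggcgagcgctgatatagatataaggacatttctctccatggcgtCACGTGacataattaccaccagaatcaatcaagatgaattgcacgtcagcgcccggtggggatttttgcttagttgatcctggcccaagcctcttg
Hoxd13, chr2:74667975-74668224, plus strand: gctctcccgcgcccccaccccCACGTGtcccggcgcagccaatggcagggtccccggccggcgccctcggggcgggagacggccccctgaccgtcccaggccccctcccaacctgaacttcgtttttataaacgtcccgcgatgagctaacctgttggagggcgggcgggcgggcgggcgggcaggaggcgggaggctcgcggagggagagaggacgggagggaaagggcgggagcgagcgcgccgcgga
The E-box began 229 bases before the start of *Hoxd13* and 96 bases before the start of *Hoxd11* shown here, and the window of another *Hoxd11* start did not hold it. The letters were not in the windows of *Hoxa11* and *Hoxa13*. In all, 5 of the 24 Hox windows (20.8%) held CACGTG, those of *Hoxd1*, *Hoxd4*, *Hoxd10*, *Hoxd11* and *Hoxd13*, compared to 7.15% of 32851 windows of all genes. The match of these letters is a description and does not show binding. The Hox windows covered the clusters unevenly, with every *Hoxd* gene but of the *Hoxc* genes *Hoxc4* alone. They had a median GC content of 57.7% and the windows of all genes 52.7%. The median ratio of observed to expected CpG, a pair of bases that CACGTG contains, was 0.63 in Hox windows and 0.38 in all windows. The part of coverage and base content in the share with CACGTG was not tested.

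Both lines expressed Hox genes at a similar summed level but from different parts of the clusters. Under DMSO the 39 genes summed to 212 ± 12.6 TPM in WT and 222 ± 16.6 TPM in *tfeb tfe3* DKO (SD, n = 4), in a unit that accounts for transcript length. A gene was counted as expressed where it reached 1 TPM in each of the 4 DMSO libraries of a line. By that limit WT expressed 25 of the 39 genes and *tfeb tfe3* DKO 10, and all 10 were also expressed in WT. The shared genes were *Hoxa9*, *Hoxa10*, *Hoxa11*, *Hoxa13*, *Hoxb6*, *Hoxd4*, *Hoxd8*, *Hoxd10*, *Hoxd11* and *Hoxd13*, of which *Hoxb6*, *Hoxd4* and *Hoxd8* belong to groups below 9. The 15 genes expressed in WT but not by that limit in *tfeb tfe3* DKO included *Hoxa3*, *Hoxa4*, *Hoxa5*, *Hoxa6*, *Hoxa7*, *Hoxb3*, *Hoxb4*, *Hoxb7*, *Hoxb8*, *Hoxb9*, *Hoxb13*, *Hoxc4*, *Hoxc6* and *Hoxd9*. The other 14 genes were below the limit in at least 1 DMSO library of both lines, and they included 7 of the 9 *Hoxc* genes.

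**Figure D1:**
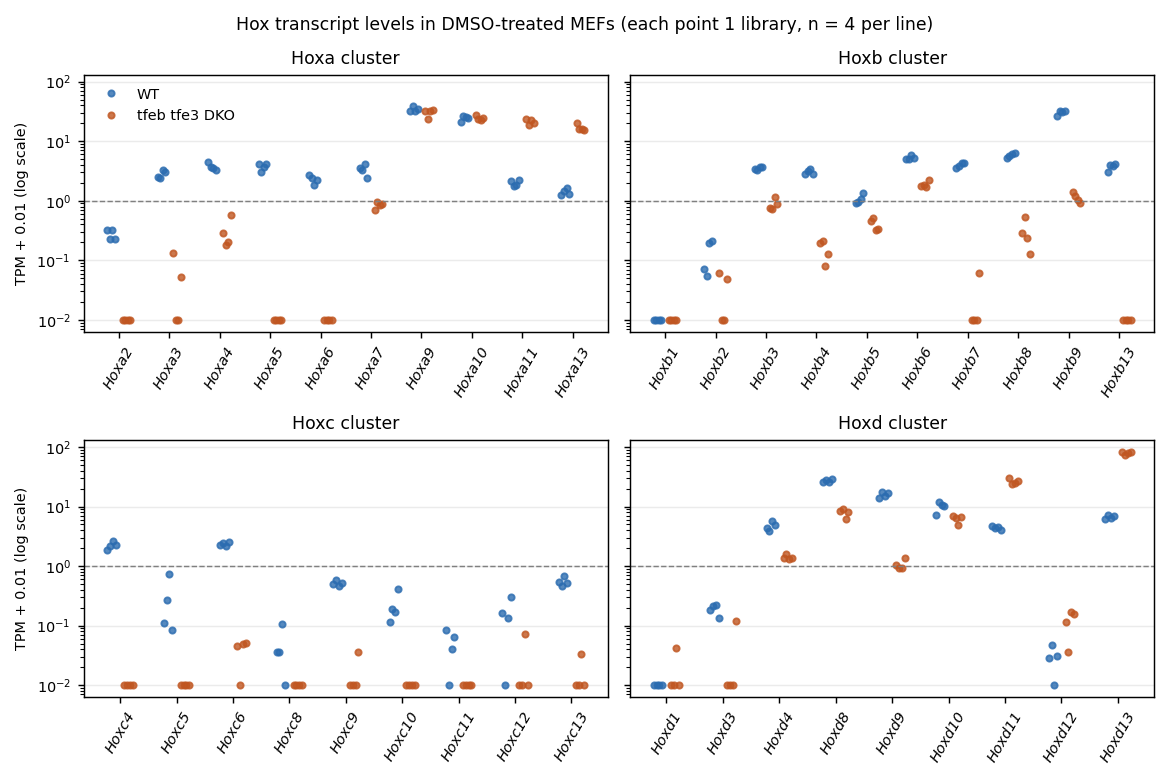
TPM plus 0.01 (log axis) of Hox genes in the 4 DMSO libraries of WT (blue) and *tfeb tfe3* DKO (orange), by cluster, with a dashed line at 1 TPM. *Hoxa9* and *Hoxa10* lie at the same height in both lines, *Hoxa11*, *Hoxa13*, *Hoxd11* and *Hoxd13* are higher in *tfeb tfe3* DKO, and most other genes are higher in WT, with all 9 *Hoxc* genes near the floor of the plot in *tfeb tfe3* DKO.

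In WT the highest level was that of *Hoxa9* with 34.7 ± 3.27 TPM, followed by *Hoxb9* with 30.1 ± 2.46, *Hoxd8* with 26.8 ± 1.78, *Hoxa10* with 24.5 ± 2.69, *Hoxd9* with 15.8 ± 1.71 and *Hoxd10* with 9.97 ± 1.90 TPM (SD, n = 4). Neighbours in this order differed by less than the sum of their SDs, apart from the steps from *Hoxa10* to *Hoxd9* and from *Hoxd9* to *Hoxd10*. Among the *tfeb tfe3* DKO genes *Hoxd13* stood first with 79.4 ± 5.16 TPM, compared to 6.66 ± 0.54 TPM in WT. It was followed by *Hoxa9* with 30.4 ± 4.30, *Hoxd11* with 26.2 ± 2.93, *Hoxa10* with 24.8 ± 2.17, *Hoxa11* with 21.2 ± 2.29 and *Hoxa13* with 16.9 ± 2.13 TPM, and no step after *Hoxd13* exceeded the sum of the 2 SDs. Close to the limit of 1 TPM were *Hoxb9* with 1.13 ± 0.21 and *Hoxd9* with 1.07 ± 0.21 TPM in *tfeb tfe3* DKO and *Hoxb5* with 1.07 ± 0.21 TPM in WT.

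The composition of the Hox RNA differed most in groups 9, 11 and 13. Group 13 held 5.81% ± 0.18 of the summed Hox TPM in WT and 43.3% ± 0.36 in *tfeb tfe3* DKO, and group 11 held 3.05% ± 0.36 and 21.3% ± 0.71. Group 9 held the largest share in WT with 38.2% ± 1.51, compared to 14.6% ± 1.30 in *tfeb tfe3* DKO, and group 10 held 16.3% ± 1.32 and 13.9% ± 0.80. Groups 4 to 8, which pattern the neck and the thorax, held 32.4% ± 1.61 in WT and 5.97% ± 1.04 in *tfeb tfe3* DKO, and groups 1 to 3, active up to the hindbrain, held 4.26% ± 0.40 and 0.80% ± 0.12. By cluster, *Hoxd* genes held 32.2% ± 0.67 in WT and 55.03% ± 1.28 in *tfeb tfe3* DKO, *Hoxb* genes 26.7% ± 0.87 and 2.14% ± 0.20, and *Hoxc* genes 2.98% ± 0.24 and 0.025% ± 0.025.

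**Figure D2:**
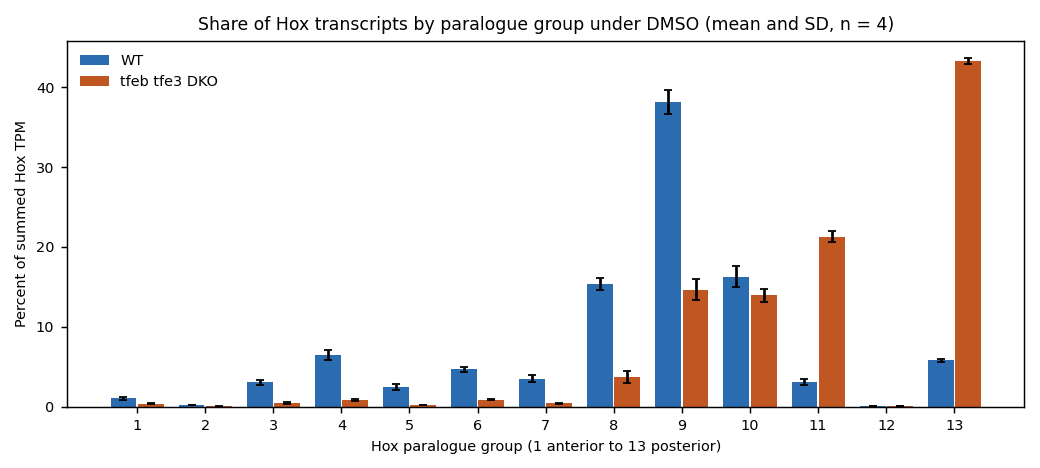
Share of the summed TPM of all 39 Hox genes (percent, mean and SD of 4 DMSO libraries) held by each paralogue group in WT (blue) and *tfeb tfe3* DKO (orange). The tallest bar in WT is that of group 9 at 38.2% ± 1.51, and in *tfeb tfe3* DKO that of group 13 at 43.3% ± 0.36.

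Of the 39 genes, 31 had enough counts for the test across genes, and 12 of these passed the filter through their counts in WT, so that their difference between lines was fixed in part by the filter. Not tested were *Hoxb1*, *Hoxb2*, *Hoxc5*, *Hoxc8*, *Hoxc11*, *Hoxc12*, *Hoxd1* and *Hoxd12*, which reached at most 0.72 TPM in any library. A gene was called at a Benjamini-Hochberg adjusted p under 0.05 over 15401 genes and a fold change of at least 1.2. Compared to WT under DMSO, 4 Hox genes were called higher in *tfeb tfe3* DKO, where 23.5% of all genes tested were, and 25 were called lower, where 24.6% of all genes were. Of the 19 genes that passed the filter in each line alone, 4 were called higher and 13 lower, and their median log2 fold change was -1.35, compared to -0.01 over all genes. With the 12 genes that passed through WT the median of the 31 was -3.58, or -3.16 with the 6 genes that had no counts in *tfeb tfe3* DKO set at their bounds. All 29 called genes had libraries that did not overlap between the lines. How many of all called genes had no such overlap was not counted, so this does not set the Hox genes apart.

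The genes called higher were the abdominal B-like genes *Hoxa11*, *Hoxa13*, *Hoxd11* and *Hoxd13*. *Hoxd13* was at 9.53, 11.3, 10.0 and 10.9 CPM in the WT libraries and at 134, 117, 127 and 134 CPM in *tfeb tfe3* DKO, a log2 fold change of 3.61 ± 0.07 (adjusted p = 6.02e-21). *Hoxa13* was at 1.17, 1.26, 1.46 and 1.26 CPM in WT and at 17.4, 14.5, 14.8 and 14.4 CPM in *tfeb tfe3* DKO, a log2 fold change of 3.57 ± 0.10 (adjusted p = 4.09e-18). For *Hoxa13* and *Hoxd13* the lowest *tfeb tfe3* DKO library stood far above the highest WT library. *Hoxa11*, which patterns the forearm and lower leg, was at 3.01, 2.53, 2.61 and 3.17 CPM in WT and 33.2, 26.8, 33.5 and 29.7 CPM in *tfeb tfe3* DKO (10.9-fold). Its antisense RNA *Hoxa11os* shares 800 of the 2287 exon bases of *Hoxa11* and differed in the same direction, with 3.81 ± 0.59 TPM in WT and 30.5 ± 1.76 TPM in *tfeb tfe3* DKO, and since the strand setting of the counting is not given in the sources used here, reads of the pair cannot be fully told apart. *Hoxd11* was at 4.80, 4.43, 4.74 and 4.02 CPM in WT and 27.3, 21.9, 22.5 and 24.3 CPM in *tfeb tfe3* DKO (5.34-fold). Of its 4212 exon bases 455 are shared with *Gm28309*, so that reads could be split between them. *Hoxd12*, which lies between *Hoxd11* and *Hoxd13*, had 22 counts over the 12 WT libraries and 72 over the 12 *tfeb tfe3* DKO libraries.

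Of the other *Hoxa* genes, *Hoxa9* and *Hoxa10* were not called. *Hoxa9* was at 23.6, 27.7, 24.7 and 25.3 CPM in WT and 23.9, 19.4, 22.96 and 24.1 CPM in *tfeb tfe3* DKO, a fold below the limit (log2 fold change -0.16 ± 0.06, adjusted p = 0.0235). For *Hoxa10* the log2 fold change was -0.12 ± 0.06 (adjusted p = 0.127), and the libraries of both lines overlapped for both genes. The anterior and central *Hoxa* genes were lower in *tfeb tfe3* DKO. *Hoxa5*, which patterns the cervical and upper thoracic region and the lung, was at 4.80, 3.52, 4.33 and 4.77 CPM in WT and had no counts in the 4 *tfeb tfe3* DKO libraries, at least 157-fold lower against a floor of 3 counts over the group. *Hoxa6* was at 1.32, 1.205, 0.90 and 1.06 CPM in WT and had no counts in any of the 12 *tfeb tfe3* DKO libraries, at least 41.1-fold lower under DMSO. *Hoxa2* was low in WT, at 0.34, 0.24, 0.34 and 0.24 CPM, and had no counts in *tfeb tfe3* DKO under DMSO (at least 10.4-fold lower). *Hoxa3* was at 4.15, 3.85, 4.78 and 4.53 CPM in WT and 0.21, 0, 0 and 0.040 CPM in *tfeb tfe3* DKO. *Hoxa4* was at 4.30, 3.58, 3.47 and 3.13 CPM in WT and 0.27, 0.17, 0.19 and 0.56 CPM in *tfeb tfe3* DKO (11.96-fold lower). *Hoxa7* was 3.65-fold lower.

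All 8 *Hoxb* genes tested were called lower in *tfeb tfe3* DKO. *Hoxb9*, a group 9 gene active in the thorax, was at 42.1, 50.4, 48.4 and 49.9 CPM in WT and 2.16, 2.01, 1.65 and 1.44 CPM in *tfeb tfe3* DKO, a log2 fold change of -4.71 ± 0.17 (adjusted p = 2.45e-16). *Hoxb13*, a gene of the tail bud, the hindgut and the prostate, differed in the opposite direction to *Hoxa13* and *Hoxd13*. It was at 4.15, 5.48, 5.38 and 5.79 CPM in WT and had no counts in *tfeb tfe3* DKO under DMSO (at least 188-fold lower) and 1 count over all 12 libraries. *Hoxb7* was at 2.71, 2.98, 2.99 and 3.27 CPM in WT and 0, 0, 0 and 0.040 CPM in *tfeb tfe3* DKO. It had 363 counts in WT and 1 in *tfeb tfe3* DKO under DMSO, a ratio of 324 (95% exact interval 57.8 to 12833). The log2 fold changes of *Hoxb4* and *Hoxb8* were -4.32 ± 0.20 and -4.26 ± 0.16. *Hoxb4* was at 4.58, 5.12, 5.49 and 4.50 CPM in WT and 0.31, 0.34, 0.12 and 0.20 CPM in *tfeb tfe3* DKO, and *Hoxb8* at 6.27, 7.26, 7.20 and 8.48 and 0.48, 0.43, 0.38 and 0.20 CPM. *Hoxb3* (3.81-fold), *Hoxb6* (2.55-fold) and *Hoxb5* (2.48-fold) differed less. *Hoxb3* was at 5.72, 5.81, 5.82 and 6.10 CPM in WT and 1.47, 1.32, 1.73 and 1.60 CPM in *tfeb tfe3* DKO. Its antisense RNA *Hoxb3os* shares 2250 of the 4251 exon bases of *Hoxb3*, so that reads of this pair cannot be fully told apart either.

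The *Hoxc* cluster was near silent in *tfeb tfe3* DKO, where none of its 9 genes exceeded 0.28 TPM in any of the 12 libraries, the value of *Hoxc6*, compared to 3.63 TPM for *Hoxc4* in WT. *Hoxc4* was at 2.31, 2.71, 3.32 and 2.79 CPM in WT and had no counts in *tfeb tfe3* DKO under DMSO (at least 99.97-fold lower). *Hoxc6*, a thoracic gene, was at 1.88, 2.17, 1.79 and 2.11 CPM in WT and 0.034, 0, 0.038 and 0.040 CPM in *tfeb tfe3* DKO, a ratio of 72.3 (95% exact interval 24.4 to 353) on 3 counts. Under DMSO *Hoxc9* and *Hoxc13* were under 1 TPM in every WT library as well. *Hoxc9* was at 0.74, 0.87, 0.67 and 0.75 CPM in WT with 1 count in *tfeb tfe3* DKO (ratio 83.0, 95% exact interval 14.5 to 3314), *Hoxc13* at 0.83, 0.69, 1.05 and 0.78 CPM with 1 count (ratio 90.2, 95% exact interval 15.8 to 3596), and *Hoxc10*, a hindlimb gene, at 0.12, 0.21, 0.19 and 0.48 CPM with none (at least 8.93-fold). *Hoxc10* shares 166 exon bases with *Hoxc5*, so that reads could be split between them.

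In the *Hoxd* cluster the difference turned from lower to higher within the span from *Hoxd10* to *Hoxd11*. *Hoxd9* was at 18.6, 23.5, 19.9 and 22.4 CPM in WT and 1.41, 1.28, 1.27 and 1.88 CPM in *tfeb tfe3* DKO, a log2 fold change of -3.85 ± 0.11 (adjusted p = 7.91e-18). *Hoxd8* was at 29.4, 28.3, 28.5 and 30.1 and 8.91, 9.94, 8.75 and 9.86 CPM (3.106-fold lower) and *Hoxd4* at 4.33, 4.04, 5.599 and 4.74 and 1.41, 1.79, 1.34 and 1.24 CPM (3.23-fold lower). *Hoxd10*, the neighbour of *Hoxd11*, was 1.56-fold lower, with 8.21, 13.2, 11.8 and 11.4 CPM in WT and 7.98, 7.47, 5.57 and 7.62 CPM in *tfeb tfe3* DKO. *Hoxd3* was at 0.31, 0.36, 0.37 and 0.24 CPM in WT and 0, 0, 0 and 0.20 CPM in *tfeb tfe3* DKO. Of its 4191 exon bases 2225 are shared with *Gm28230* and 388 with *Hoxd4*, so that the values of *Hoxd3* and *Hoxd4* are uncertain.

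The lines also differed in these genes under both drugs. Under torin1 4 Hox genes were called higher in *tfeb tfe3* DKO, where 24% of all genes were, and 26 lower, where 27.8% were. Under MK-8722 4 were higher, where 23.3% of all genes were, and 24 lower, where 25.4% were. Of the 19 genes that passed the filter in each line alone, 4 were higher and 14 lower under torin1, and 4 and 13 under MK-8722. The difference of the 12 genes that passed through WT was fixed in part by the filter here too. The genes called higher were *Hoxa11*, *Hoxa13*, *Hoxd11* and *Hoxd13* under all 3 treatments. *Hoxa10* was called lower under torin1 (log2 fold change -0.41 ± 0.07, adjusted p = 1.10e-05) and not under DMSO or MK-8722, and *Hoxd3* was not called under MK-8722 (log2 fold change -1.12 ± 0.69, adjusted p = 0.165). Leaving out any 1 library left 4 genes higher and 25 lower under DMSO.

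In the transcript table, the transcript with the highest mean TPM under DMSO was the same in both lines for *Hoxa11*, *Hoxa13* and *Hoxd11* but not for *Hoxa10*. *Hoxd13* has a single transcript there, so it could not differ in this. The main transcript of *Hoxd11* made up 75.5% of its TPM in WT and 83.7% in *tfeb tfe3* DKO under DMSO, and that of *Hoxa11* 83.3% and 82.1%. Of *Hoxa10*, 1 protein-coding transcript was at 7.82 ± 0.76 TPM in WT and 3.65 ± 0.57 TPM in *tfeb tfe3* DKO, another, the highest in WT, was at 8.43 ± 1.70 and 9.39 ± 1.16 TPM, and a noncoding processed transcript was at 7.28 ± 1.17 and 9.50 ± 0.61 TPM and so stood first in *tfeb tfe3* DKO, by less than the SD (n = 4). These are estimates from reads shared between overlapping transcripts and were not tested.

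Other genes that mark position differed between the lines together with the Hox genes. Of 20 limb and trunk position factors tested, 12 were called higher and 6 lower in *tfeb tfe3* DKO under DMSO, where 23.5% and 24.6% of all genes were, with a median log2 fold change of 1.15 compared to -0.01 over all genes. The filter ran on both lines together, so *Tbx5*, *Hand2* and *Tbx3*, with few or no counts in *tfeb tfe3* DKO, passed through WT. The difference of such genes was fixed in part by the filter, and the list was not split by line. *Tbx5*, the T-box factor that starts forelimb growth, was at 6.85, 9.03, 7.02 and 8.10 TPM in WT and had no counts in *tfeb tfe3* DKO under DMSO, at least 583-fold lower. *Hand2* and *Tbx3*, which act in the posterior limb bud and also in the heart and flank, were at 25.3 ± 5.10 and 13.2 ± 0.86 TPM in WT and at 0.0066 ± 0.013 and 0.022 ± 0.0082 TPM in *tfeb tfe3* DKO. The hindlimb factors *Pitx1* and *Tbx4* lay the other way to *Tbx5*, while *Hoxc10* was lower together with *Tbx5*. *Pitx1* was at 1.52, 1.39, 1.84 and 1.19 TPM in WT and 9.71, 10.7, 9.33 and 9.40 TPM in *tfeb tfe3* DKO, a log2 fold change of 2.82 ± 0.13 (adjusted p = 2.37e-14). *Tbx4*, its target in the hindlimb bud, was at 0.58, 0.53, 0.64 and 0.49 TPM in WT and 7.30, 8.71, 6.64 and 7.58 TPM in *tfeb tfe3* DKO, a log2 fold change of 3.79 ± 0.12 (adjusted p = 1.77e-17). *Sall1* and *Msx1*, factors of the distal limb bud, and *Lmx1b*, which marks the dorsal side, were also called higher, with log2 fold changes of 3.89 ± 0.07, 3.53 ± 0.14 and 3.12 ± 0.09, and *Shox2*, of the proximal limb, was lower (-1.66 ± 0.07). These 4 genes were picked after their values were seen.

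**Figure D3:**
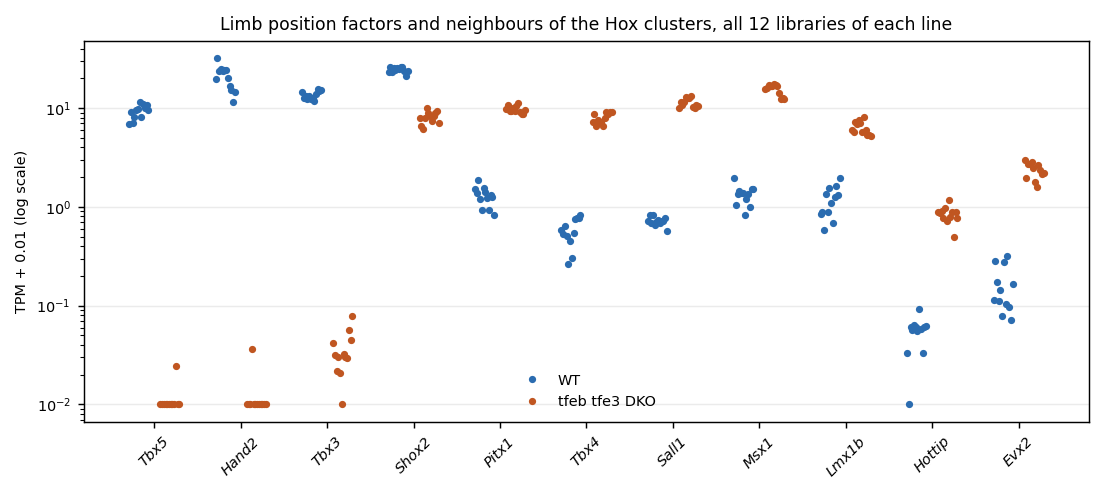
TPM plus 0.01 (log axis) of limb position factors and of *Hottip* and *Evx2*, beside the Hox clusters, in all 12 libraries of WT (blue) and of *tfeb tfe3* DKO (orange). *Tbx5* lies at 6.85 to 11.6 TPM in WT and 0 to 0.015 in *tfeb tfe3* DKO, and *Tbx4* at 0.25 to 0.81 and 6.52 to 9.18. No gene plotted overlaps between the lines, but apart from *Tbx5*, *Tbx4* and *Pitx1* the genes were chosen with their difference known.

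Transcripts beside the posterior ends of the *Hoxa* and *Hoxd* clusters differed in the same direction as *Hoxa13* and *Hoxd13*, while *Hoxb13* and *Hoxc13* differed in the opposite direction. *Hottip*, a noncoding RNA beyond *Hoxa13*, had a log2 fold change of 4.82 ± 0.36 (adjusted p = 6.94e-11) and *Evx2*, the homeobox gene beyond *Hoxd13*, of 3.996 ± 0.25 (adjusted p = 2.83e-12). The counts of the lists below are to be read against the 23.5% of all genes called higher and the 24.6% called lower, and those of the Polycomb genes and the genes beside the clusters lay near these shares. These lists were not split either by the line through which a gene passed the filter. Of 6 noncoding RNAs of the clusters tested, *Hottip* and *Hoxa11os* were higher and 4 lower, among them *Hoxaas3* (-2.003 ± 0.69). Among 21 genes beside the clusters, 6 were higher and 6 lower, with a median of -0.01, among them *Nfe2*, beside the *Hoxc* cluster, which had no counts in *tfeb tfe3* DKO under DMSO (at least 22.3-fold lower), and *Skap1*, beside the *Hoxb* cluster (1.15 ± 0.32). Of 9 TALE cofactors, 1 was higher and 7 were lower, among them *Meis3* (-1.04 ± 0.06) and *Meis1* (-0.998 ± 0.14). Of 32 Polycomb genes 6 were higher and 8 lower, with *Cbx2* the furthest (-1.33 ± 0.10), followed by *Cbx7* (-0.51 ± 0.08) and *Cbx8* (-0.51 ± 0.08), and of 17 trithorax genes 7 were higher and 4 lower, with *Dot1l* at 0.57 ± 0.08, *Men1* at -0.46 ± 0.04 and *Setd1b* at 0.42 ± 0.06. Of 13 factors of the Hox-free cranial mesenchyme tested, 5 were higher, among them *Tfap2a* (3.85 ± 0.08), and 6 lower, among them *Dlx4* (-4.33 ± 0.25) and *Dlx6*, which had no counts in *tfeb tfe3* DKO under DMSO (at least 10.1-fold lower). Of 11 retinoic acid genes 3 were higher and 1 lower. Among the higher genes *Rdh10* and *Rara* were at 0.88 ± 0.11 and 0.31 ± 0.04. The ParaHox genes *Cdx2* and *Cdx4*, which act upstream of trunk Hox genes, had no counts under DMSO in either line.

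Torin1 changed Hox genes in both directions in both lines. In WT 8 of the 31 genes were called higher, or 5 without torin1 replicate 3, where 26.6% of all genes were, and 6 lower, where 20.5% were, so that the share of Hox genes called was close to that of all genes. Of the same genes 7 were higher in *tfeb tfe3* DKO, where 23% of all genes were, and 5 lower, where 20.2% were, but 12 of the 31 had too few counts in that line to pass the filter there. Of the 19 genes that passed in each line alone, 21.1% were higher and 31.6% lower in WT, and 36.8% higher and 26.3% lower in *tfeb tfe3* DKO. Over these 19 genes the median log2 fold change was -0.11 in WT and 0.11 in *tfeb tfe3* DKO, compared to 0.05 and 0.02 over all genes. Most genes called higher belonged to groups 4 to 8 and most called lower to groups 9 to 13. In WT, of 5 genes of groups 1 to 3 tested none was called by edgeR, DESeq2 or limma-voom (0 at an unadjusted p under 0.05 by edgeR), of 13 genes of groups 4 to 8 6 were higher and 1 lower, and of 13 genes of groups 9 to 13 2 were higher and 5 lower. Among the 19 genes that passed in each line alone, 10 belonged to groups 1 to 8, of which 4 were higher and 1 lower in WT and 6 higher in *tfeb tfe3* DKO, and 9 to groups 9 to 13, of which 5 were lower in WT and 1 higher and 5 lower in *tfeb tfe3* DKO. The libraries of the lines are separate, and 3 genes were called higher in both lines, *Hoxa7*, *Hoxb5* and *Hoxb6*, and 5 lower in both, *Hoxa9*, *Hoxa10*, *Hoxa11*, *Hoxb9* and *Hoxd13*. What share of all genes was called in the same direction in both lines was not counted, so these counts cannot be set against it. Markers of other cell types moved with torin1 as well, with 3 of 5 epithelial and 2 of 2 endothelial markers tested higher in WT and 2 of 5 epithelial markers higher in *tfeb tfe3* DKO, and of 11 fibroblast markers 4 were higher and 3 lower in WT and 4 higher and 2 lower in *tfeb tfe3* DKO. Of 2 haematopoietic markers 1 was higher and 1 lower in WT and 1 higher in *tfeb tfe3* DKO, and of 3 neural markers 1 was higher and 2 lower in WT and 1 higher in *tfeb tfe3* DKO. Of 2 skeletal muscle markers 1 was higher in WT and 0 were called in *tfeb tfe3* DKO. The part of these cells in the Hox results was not tested.

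**Figure D4:**
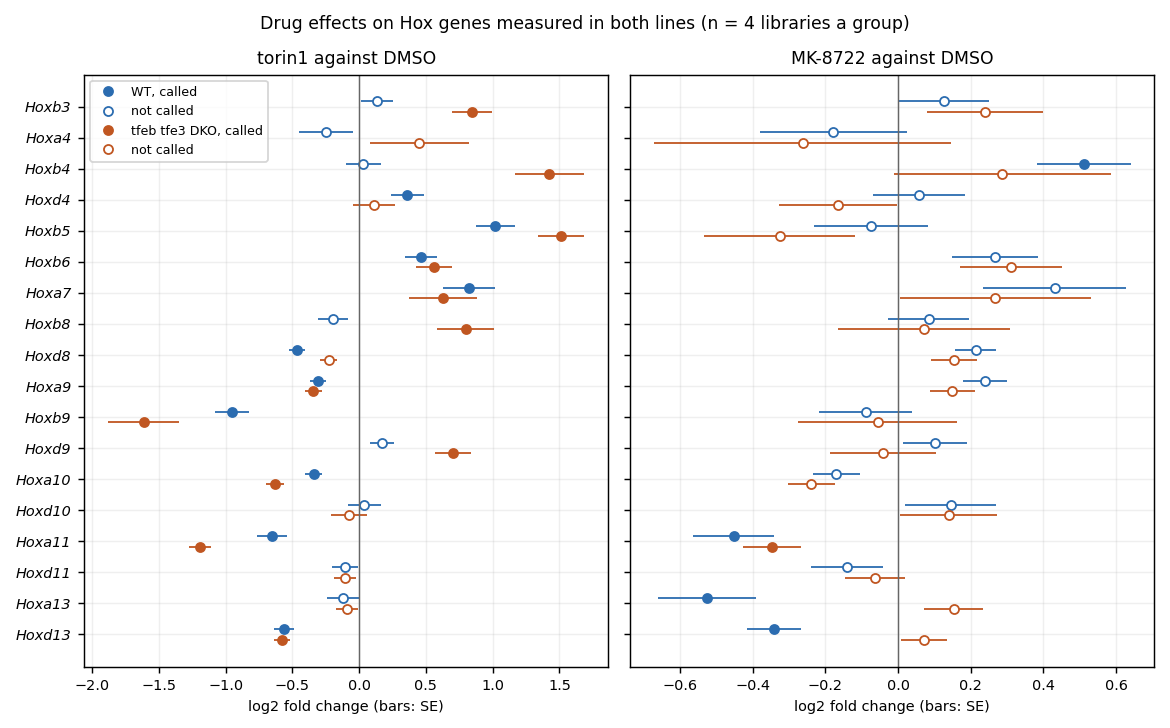
Log2 fold change with torin1 (left) and MK-8722 (right) against DMSO for 18 Hox genes that passed the filter in each line alone, ordered from anterior to posterior, in WT (blue) and *tfeb tfe3* DKO (orange), with bars for the SE and filled points for called genes. With torin1 the called genes from *Hoxb3* to *Hoxb8* lie to the right and most called genes from *Hoxd8* to *Hoxd13* to the left, with *Hoxd9* in *tfeb tfe3* DKO to the right. With MK-8722 few points are filled.

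Among the genes that were higher with torin1, *Hoxb5* showed the largest fold change in *tfeb tfe3* DKO. It was at 1.41, 1.29, 1.68 and 2.08 CPM with DMSO and 3.26, 3.24, 3.26 and 3.29 CPM with torin1 in WT, a log2 fold change of 1.02 ± 0.15 (adjusted p = 2.53e-06). The *tfeb tfe3* DKO libraries were at 0.72, 0.73, 0.54 and 0.60 and 2.24, 1.91, 1.62 and 1.64 CPM, a log2 fold change of 1.51 ± 0.18 (adjusted p = 1.26e-07). The libraries did not overlap in either line. *Hoxb6* went from 4.83, 5.18, 5.82 and 5.45 to 6.73, 7.85, 6.99 and 7.77 CPM in WT (1.38-fold) and from 1.92, 2.13, 1.77 and 2.53 to 3.47, 2.79, 3.05 and 2.97 CPM in *tfeb tfe3* DKO (1.47-fold). *Hoxa7* went from 4.49, 3.58, 4.52 and 2.62 to 5.26, 7.47, 7.68 and 6.52 CPM in WT, a log2 fold change of 0.82 ± 0.19 (adjusted p = 0.000767). Its *tfeb tfe3* DKO libraries overlapped, with 0.89, 1.24, 0.92 and 1.12 CPM with DMSO and 1.72, 1.76, 2.05 and 0.89 CPM with torin1 (0.63 ± 0.25, adjusted p = 0.0395), and the call was lost when any of 6 of 8 libraries was left out (adjusted p up to 0.132).

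*Hoxa5*, *Hoxa6*, *Hoxc9*, *Hoxc13* and *Hoxd4* were called higher with torin1 in WT and not in *tfeb tfe3* DKO. *Hoxc13*, a gene of skin appendages and the tail, was at 0.83, 0.69, 1.05 and 0.78 CPM with DMSO and 1.60, 2.07, 1.91 and 2.90 CPM with torin1, a log2 fold change of 1.34 ± 0.25 (adjusted p = 8.61e-05). *Hoxa5* went to 5.75, 5.94, 6.08 and 6.95 CPM (1.42-fold) and *Hoxd4* from 4.33, 4.04, 5.599 and 4.74 to 5.91, 6.07, 6.21 and 5.77 CPM (1.28-fold). *Hoxa6* (1.34, 1.56, 1.60 and 2.04 CPM with torin1, 1.45-fold) and *Hoxc9* (1.21, 1.21, 1.07 and 1.18 CPM, 1.53-fold) were just past the threshold, and their calls were lost when any of 6 of 8 and 7 of 8 libraries was left out, with adjusted p up to 0.126 and 0.0980. *Hoxd4* lost its call without 2 of 8 libraries (adjusted p up to 0.0590). With the passage as a block the adjusted p was 0.0535 for *Hoxa6* and 0.0503 for *Hoxc9*. In *tfeb tfe3* DKO *Hoxd4* was tested as well and went from 1.41, 1.79, 1.34 and 1.24 to 1.79, 1.65, 1.33 and 1.47 CPM (0.11 ± 0.16, adjusted p = 0.575), with an interaction of -0.25 ± 0.20 (adjusted p = 0.475). The other 4 had few or no counts in that line. There *Hoxa6* had no counts, and *Hoxa5*, *Hoxc9* and *Hoxc13* had at most 2 counts in a library.

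*Hoxb3*, *Hoxb4*, *Hoxb8* and *Hoxd9* were called higher with torin1 in *tfeb tfe3* DKO. *Hoxb4* was at 0.31, 0.34, 0.12 and 0.20 CPM with DMSO and 0.49, 0.77, 0.61 and 0.75 CPM with torin1, a log2 fold change of 1.43 ± 0.26 (adjusted p = 4.96e-05). In WT, where it was 20.03-fold higher under DMSO, it was at 4.58, 5.12, 5.49 and 4.50 and 5.06, 5.15, 4.54 and 5.37 CPM, with overlapping libraries (log2 fold change 0.03 ± 0.13, adjusted p = 0.851). The values of *Hoxb4* in *tfeb tfe3* DKO rest on 25 counts over the 4 DMSO libraries and 72 over the 4 torin1 libraries. *Hoxb3* went from 1.47, 1.32, 1.73 and 1.60 to 2.46, 3.23, 3.27 and 2.07 CPM (0.85 ± 0.15, adjusted p = 4.66e-05). *Hoxd9* went from 1.41, 1.28, 1.27 and 1.88 to 2.87, 2.57, 1.94 and 2.14 CPM (0.70 ± 0.13, adjusted p = 0.000100), and was the sole group 9 to 13 gene called higher in *tfeb tfe3* DKO. *Hoxb8* went from 0.48, 0.43, 0.38 and 0.20 to 0.71, 0.77, 0.61 and 0.54 CPM (0.80 ± 0.22, adjusted p = 0.00920), and without DMSO replicate 4 its adjusted p was 0.0739.

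The genes lower with torin1 belonged to groups 8 to 13. *Hoxa11* was at 3.01, 2.53, 2.61 and 3.17 CPM with DMSO and 1.96, 1.56, 1.88 and 1.79 CPM with torin1 in WT, a log2 fold change of -0.66 ± 0.11 (adjusted p = 2.35e-05). The *tfeb tfe3* DKO line showed 33.2, 26.8, 33.5 and 29.7 and 14.3, 12.8, 12.9 and 13.9 CPM, a log2 fold change of -1.19 ± 0.08 (adjusted p = 2.83e-11). Every torin1 library was below every DMSO library of its line. *Hoxb9* went from 42.1, 50.4, 48.4 and 49.9 to 26.4, 24.4, 23.4 and 24.4 CPM in WT, a log2 fold change of -0.95 ± 0.13 (adjusted p = 1.22e-06). At a far lower level, it went in *tfeb tfe3* DKO from 2.16, 2.01, 1.65 and 1.44 to 0.52, 0.81, 0.61 and 0.43 CPM (-1.61 ± 0.27, adjusted p = 1.78e-05). *Hoxd13* showed folds of similar size in both lines, though its level differed 12.2-fold between them under DMSO. It went from 9.53, 11.3, 10.0 and 10.9 to 7.97, 6.99, 7.05 and 6.27 CPM in WT (-0.56 ± 0.07, adjusted p = 6.87e-07) and from 134, 117, 127 and 134 to 89.5, 87.7, 83.7 and 81.5 CPM in *tfeb tfe3* DKO (-0.58 ± 0.06, adjusted p = 4.91e-08).

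*Hoxa10* went from 24.2, 30.7, 29.9 and 28.0 to 23.1, 23.4, 21.2 and 21.3 CPM in WT (-0.34 ± 0.06) and from 28.9, 24.7, 24.2 and 26.2 to 16.9, 17.9, 16.3 and 16.1 CPM in *tfeb tfe3* DKO (-0.63 ± 0.07). *Hoxa9* went from 23.6, 27.7, 24.7 and 25.3 to 19.6, 20.9, 21 and 20.3 CPM in WT (-0.31 ± 0.06) and from 23.9, 19.4, 22.96 and 24.1 to 18.1, 18.7, 17.4 and 17.1 CPM in *tfeb tfe3* DKO (-0.34 ± 0.06). *Hoxd8* was called lower in WT, with 29.4, 28.3, 28.5 and 30.1 CPM with DMSO and 20.9, 20.6, 22.1 and 20.7 CPM with torin1 (-0.46 ± 0.06, adjusted p = 2.78e-07). In *tfeb tfe3* DKO its libraries did not overlap either, at 8.91, 9.94, 8.75 and 9.86 and 7.73, 7.13, 8.41 and 8.72 CPM, but the fold of 1.17 was under 1.2 (adjusted p = 0.00431). With library size alone as the scale, *Hoxa9* and *Hoxa10* in WT kept their direction but fell under the fold limit. *Hoxa13*, *Hoxd10* and *Hoxd11* were not called with torin1 in either line, with log2 fold changes between -0.12 and 0.04 and SEs of at most 0.13.

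**Figure D5:**
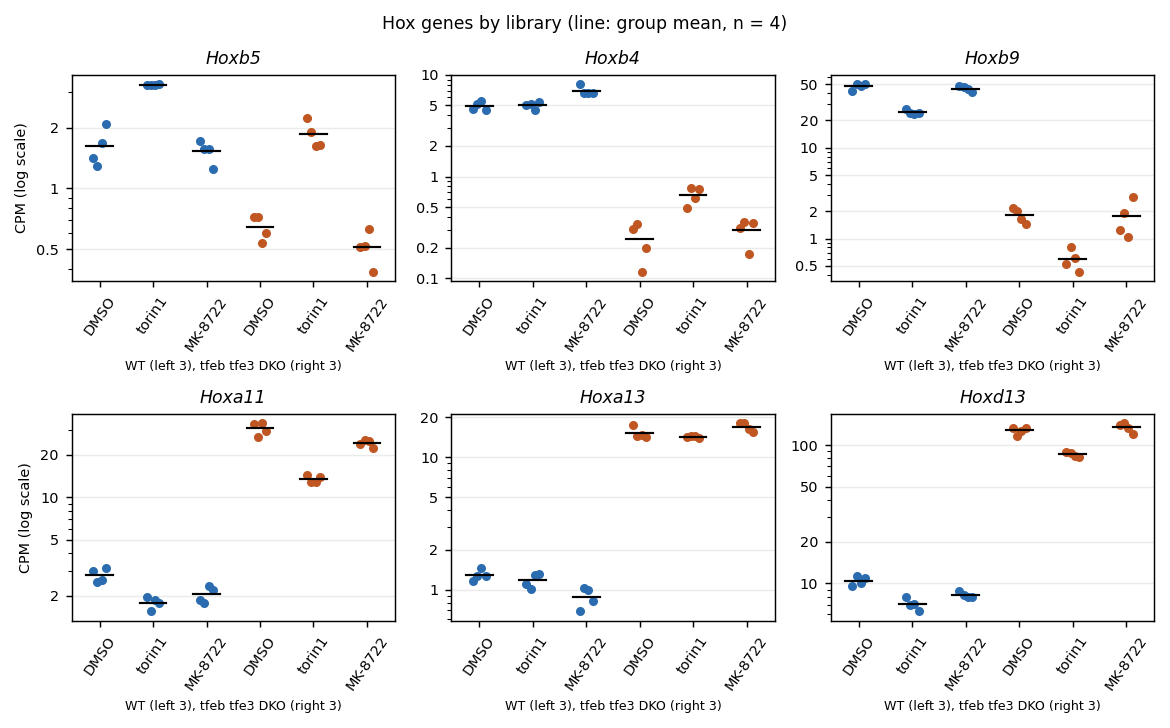
CPM (log axis) of 6 Hox genes in every library of WT (blue, left 3 groups) and *tfeb tfe3* DKO (orange, right 3 groups), with a line at each group mean. With torin1 *Hoxb5* is higher and *Hoxb9*, *Hoxa11* and *Hoxd13* are lower in both lines, *Hoxb4* is higher in *tfeb tfe3* DKO, and with MK-8722 *Hoxa13* and *Hoxd13* are lower in WT.

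MK-8722 was compared with the same DMSO libraries, and fewer Hox genes were called. In WT 3 were called higher, where 10.3% of all genes were, and 3 lower, where 5.87% were. In *tfeb tfe3* DKO none was called higher by edgeR, where 5.47% of all genes were, and 2 were called lower, where 3.21% were, while 6 of the 31 had an unadjusted p under 0.05 (3 of them above 0) and DESeq2 and limma-voom called 0 higher. Here too 12 of the 31 had too few counts in *tfeb tfe3* DKO to pass the filter there. Of the 19 that passed in each line alone, 0 were higher and 2 lower in that line. Without DMSO replicate 4 edgeR called 1 gene higher. Tested against a fold change of 1.2 itself (glmTreat), 0 Hox genes were called with MK-8722 in either line. The share of all genes called by glmTreat was not counted, so this does not set the Hox genes apart. Of the markers of other cell types tested, 1 of 2 endothelial and 1 of 2 haematopoietic markers were higher with MK-8722 in WT, 1 of 5 epithelial markers was lower, and of 3 neural markers 2 were higher and 1 lower. In *tfeb tfe3* DKO 1 of 2 haematopoietic, 1 of 3 neural and 1 of 2 skeletal muscle markers were higher, and of 5 epithelial markers 1 was higher and 1 lower. The part of these cells in the Hox results was not tested. *Hoxa11* was called lower in both lines. It went from 3.01, 2.53, 2.61 and 3.17 to 1.87, 1.79, 2.37 and 2.22 CPM in WT (-0.45 ± 0.11, adjusted p = 0.00302) and from 33.2, 26.8, 33.5 and 29.7 to 23.9, 25.6, 25.1 and 22.4 CPM in *tfeb tfe3* DKO (-0.35 ± 0.08, adjusted p = 0.00328). *Hoxd13* was lower in WT, with 8.83, 8.21, 7.96 and 8.02 CPM (-0.34 ± 0.07, adjusted p = 0.000980), while the *tfeb tfe3* DKO libraries were at 139, 144, 133 and 120.4 CPM, overlapping the DMSO libraries (0.07 ± 0.06, adjusted p = 0.477). *Hoxa13* was lower in WT at 0.69, 1.04, 0.99 and 0.82 CPM (-0.53 ± 0.13, adjusted p = 0.0182), a call lost without 2 of 8 libraries (adjusted p up to 0.0795), and at 18.1, 18.05, 16.3 and 15.5 CPM in *tfeb tfe3* DKO (0.15 ± 0.08, adjusted p = 0.198).

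The genes higher with MK-8722 in WT were *Hoxb4*, *Hoxc4* and *Hoxc13*. *Hoxb4* went to 8.14, 6.59, 6.65 and 6.66 CPM, above every DMSO library (0.51 ± 0.13, adjusted p = 0.00402). *Hoxc13* went to 1.99, 1.33, 1.47 and 1.52 CPM (0.91 ± 0.26, adjusted p = 0.00969), also without overlap. *Hoxc4* overlapped, with 2.31, 2.71, 3.32 and 2.79 CPM with DMSO and 4.40, 3.22, 3.68 and 3.74 CPM with MK-8722 (0.44 ± 0.15, adjusted p = 0.0402), and its call was lost without any of 6 of 8 libraries (adjusted p up to 0.139).

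The response itself was compared between the lines with an interaction contrast, in which a value above 0 means that the log2 fold change with the drug was higher in *tfeb tfe3* DKO. For torin1, 4 Hox genes were called above 0, where 4.68% of all genes were, and 2 below 0, where 6.33% were. The 31 genes tested for this and for MK-8722 include the 12 with too few counts in *tfeb tfe3* DKO. Above 0 were *Hoxb4* (1.39 ± 0.29, adjusted p = 0.00189), *Hoxb8* (1.00 ± 0.24, adjusted p = 0.00796), *Hoxb3* (0.71 ± 0.20, adjusted p = 0.0150) and *Hoxd9* (0.53 ± 0.16, adjusted p = 0.0267). Each of these was higher with torin1 in *tfeb tfe3* DKO, the line in which it was lower under DMSO. Of the 31 Hox genes tested 25 were lower in that line under DMSO. Its DMSO libraries also enter both comparisons, so the 2 findings are not independent. Below 0 were *Hoxa11* (-0.54 ± 0.14, adjusted p = 0.0103) and *Hoxa10* (-0.29 ± 0.09, adjusted p = 0.0357), which were lower with torin1 in both lines and more so in *tfeb tfe3* DKO. The calls of *Hoxa10* and *Hoxd9* were lost without 10 of 16 and 4 of 16 libraries (adjusted p up to 0.106 and 0.0730), and that of *Hoxb8* without DMSO replicate 4 of *tfeb tfe3* DKO (adjusted p = 0.0608). The calls of *Hoxb5*, *Hoxb6*, *Hoxa7*, *Hoxa9*, *Hoxb9* and *Hoxd13* with torin1 did not come with a called difference between lines, with interactions from -0.66 to 0.49, which does not show that the lines responded alike.

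For MK-8722, 2 Hox genes were called above 0, where 1.42% of all genes were, and none below 0 by edgeR, where 4.08% were, with 1 of the 31 below 0 at an unadjusted p under 0.05 and 0 called by DESeq2 and limma-voom. Without MK-8722 replicate 4 of *tfeb tfe3* DKO 1 gene was called below 0. The genes above 0 were the group 13 genes *Hoxa13* (0.68 ± 0.16, adjusted p = 0.0112) and *Hoxd13* (0.41 ± 0.10, adjusted p = 0.00877), which were lower with MK-8722 in WT and not in *tfeb tfe3* DKO. The call of *Hoxa13* was lost without MK-8722 replicate 1 of WT (adjusted p = 0.0537), the library with the lowest value.

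Limb and trunk position factors were also called in both directions with torin1. Of the 20 limb and trunk factors tested, 5 were higher and 3 lower with torin1 in WT, where 26.6% and 20.5% of all genes were, and 6 higher and 3 lower in *tfeb tfe3* DKO, where 23% and 20.2% were. With MK-8722 1 was higher and 3 lower in WT, where 10.3% and 5.87% of all genes were. In *tfeb tfe3* DKO 0 were called higher and 0 lower with MK-8722, where 5.47% and 3.21% were. *Hand2* was lower with torin1 in WT (-0.88 ± 0.13), where *Lmx1b* (0.71 ± 0.10) and *Tbx18* (0.64 ± 0.06) were higher, and *Lmx1b* was lower in *tfeb tfe3* DKO (-0.48 ± 0.07), a difference between lines of -1.19 ± 0.12 (adjusted p = 3.03e-07). *Tbx5* with torin1 in WT (0.24 ± 0.11) and *Tbx4* with torin1 in *tfeb tfe3* DKO (0.19 ± 0.09) were not called. With torin1 in WT *Pitx1* was called lower (-0.38 ± 0.16), as was *Tbx4* with MK-8722 in WT (-0.60 ± 0.16), both at the low level of that line.

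Among the regulators of Hox genes, *Kmt2a*, encoding the trithorax methyltransferase MLL1, was higher with torin1 in both lines (0.45 ± 0.08 in WT and 1.06 ± 0.08 in *tfeb tfe3* DKO), and the difference between lines was called (0.61 ± 0.12, adjusted p = 0.000927). The Polycomb gene *Cbx2* was higher with torin1 in *tfeb tfe3* DKO (0.79 ± 0.10), with an interaction of 0.93 ± 0.13 (adjusted p = 2.86e-05). Among all genes 26.6% were higher and 20.5% lower with torin1 in WT, and 23% and 20.2% in *tfeb tfe3* DKO, which holds for the list counts that follow. Of 32 Polycomb genes, 10 were higher and 9 lower with torin1 in WT and 11 and 7 in *tfeb tfe3* DKO, led by *Ezh1* (1.08 ± 0.06 and 1.006 ± 0.06) and with *Pcgf1* also higher (0.76 ± 0.08 and 0.65 ± 0.09). Of 17 trithorax genes 2 were higher and 5 lower in WT and 4 and 5 in *tfeb tfe3* DKO, with *Dot1l* lower in both (-0.82 ± 0.08 and -0.82 ± 0.08). Of 9 TALE cofactors, 4 were higher in WT and 1 higher and 2 lower in *tfeb tfe3* DKO. *Gdf11*, a ligand that sets the onset of posterior Hox genes in embryos, was lower with torin1 in both lines (-1.33 ± 0.09 and -1.55 ± 0.09), and was 1 of 2 caudal signal genes called lower in WT and the sole such gene in *tfeb tfe3* DKO, where 1 other was higher. Of 11 retinoic acid genes 4 were higher and 2 lower in WT and 6 and 2 in *tfeb tfe3* DKO, with *Dhrs3*, encoding a retinaldehyde reductase, higher in both (1.82 ± 0.38 and 1.51 ± 0.39). Of 13 cranial factors 5 were higher in WT and 4 in *tfeb tfe3* DKO, among them *Dlx4* (1.15 ± 0.15 and 2.003 ± 0.32) and *Pax3* (0.74 ± 0.14 and 0.42 ± 0.12).

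Near the clusters, *Hotairm1*, an antisense RNA of the *Hoxa* cluster, was lower with torin1 in both lines (-1.06 ± 0.14 and -0.57 ± 0.17) and *Hoxd3os1* higher (0.66 ± 0.19 and 0.67 ± 0.25), and these were the 2 of 6 noncoding RNAs called in each line. Of 21 genes beside the clusters 3 were higher and 9 lower in WT and 3 and 6 in *tfeb tfe3* DKO, with *Calcoco1*, an autophagy receptor gene beside the *Hoxc* cluster, the furthest (1.76 ± 0.05 and 2.06 ± 0.05). With MK-8722, of 132 genes tested in the 9 lists together, 11 were higher and 7 lower in WT, where 10.3% and 5.87% of all genes were, and 10 were higher and 1 lower in *tfeb tfe3* DKO, where 5.47% and 3.21% were.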

How the data were processed

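RNA of the 24 libraries was sequenced as 52 bp paired reads. The authors processed the reads with nf-core/rnaseq (STAR and salmon, GRCm38, with UMIs taken into account) and deposited a gene table of estimated counts (expected counts) and, for each library, a transcript table with estimated counts and TPM. The strand setting is not given in the sources used here. The authors removed a batch effect that they do not name, and none was removed here.

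The deposited counts were rounded and tested with the edgeR 4.0.16 quasi-likelihood test (R 4.3.3) on all 24 libraries with 1 mean per group, TMM normalization and filterByExpr at a minimum count of 10, which left 15401 of 55487 genes. Calls required an adjusted p (Benjamini-Hochberg) under 0.05 together with a change of 1.2-fold or more, and ± after a log2 fold change is the SE. The biological coefficient of variation was 10.7% on 18 residual degrees of freedom. CPM used library totals (24668921 to 33332562 counts) scaled by TMM factors, and levels were compared between genes by TPM, summed per gene from the deposited transcript tables. In simulated counts for torin1 in WT the test called 160 of 200 changed genes and 4 of 14811 unchanged genes. Gene positions and shared exons came from GENCODE vM21. Floors of 3 counts and exact intervals at 95% cover counting error only. The p-values measure the spread between libraries of 1 line at 4 passages.

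The members and lists were chosen with earlier results of these data known. Values per library are given for Hox genes called with a drug or between responses and for up to 6 a cluster that differed most between lines. Of each list up to 3 called genes a comparison with the largest fold change and no overlap are named, and *Tfeb*, *Tfe3*, *Tbx5*, *Tbx4* and *Pitx1* in any case. Some genes that these rules select are not reported here, though they remain in the fits and counts, except in the tally of libraries that stood apart. Alternatives were other filters, normalizations, tests (DESeq2 1.42.0, limma 3.58.1 voom, glmTreat), thresholds, blocks and left-out libraries.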

Additional observations from a re-analysis of the deposited data

Results flagged for a closer look

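In 4 of the 133 sets of 4 libraries examined (Hox gene by group) 1 library stood apart from the other 3 by Dixon's test at its 95% critical value. Chance gives this in about 1 of 20 such sets. *Hoxb4* was highest in MK-8722 replicate 1 of WT at 8.14 CPM and *Hoxd8* was highest in torin1 replicate 3 of WT at 22.1 CPM. *Hoxa4* was lowest in MK-8722 replicate 2 of WT at 2.79 CPM. *Hoxa13* was highest in DMSO replicate 1 of *tfeb tfe3* DKO at 17.4 CPM.

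The response to torin1 differed between the lines by the interaction test of edgeR for 6 Hox genes, with a log2 difference (*tfeb tfe3* DKO minus WT) of 1.39 for *Hoxb4*, 1.00 for *Hoxb8*, 0.71 for *Hoxb3*, 0.53 for *Hoxd9*, -0.54 for *Hoxa11* and -0.29 for *Hoxa10*. The response to MK-8722 differed for *Hoxa13* by 0.68 and for *Hoxd13* by 0.41. *Hoxb4* and *Hoxb8* had few counts in *tfeb tfe3* DKO, and their part in these differences was not tested.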

How the results depend on the processing

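Of 129 called Hox comparisons 97 kept their call in every alternative and 24 lost it in at least 1. All 24 were calls of a drug against DMSO or of a response, and none was between the lines. They included every Hox call for MK-8722 against DMSO and for the response to it. The other 8, between the lines for *Hoxa2*, *Hoxc10* and *Hoxd3*, kept their call where it was fitted. These did not pass the stricter filter or that of the fit on only the groups compared. None changed direction. The 4 higher and 25 lower Hox genes between the lines under DMSO stayed at these counts without any 1 library, and the Hox genes expressed at 1 TPM stayed at 25 in WT and 10 to 11 in *tfeb tfe3* DKO. Library size alone as the scale moved the median log2 fold change of all genes from -0.04 to -0.16 between the lines under torin1. With the test against a fold change of 1.2 (glmTreat), higher Hox genes went from 8 to 4 for torin1 in WT, from 3 to 0 for MK-8722 in WT, from 4 to 1 for the torin1 response and from 2 to 0 for the MK-8722 response, and lower Hox genes from 3 to 0 and from 2 to 0 for MK-8722 in WT and *tfeb tfe3* DKO and from 2 to 0 for the torin1 response. With no filter these were 5 higher for torin1 in WT, 1 lower for MK-8722 in *tfeb tfe3* DKO and 1 lower for the torin1 response. Without a fold change limit 5 Hox genes were higher with MK-8722 in WT. With only the groups compared in the fit 1 was lower with MK-8722 in *tfeb tfe3* DKO. Without the passage 11 WT and passage 8 *tfeb tfe3* DKO libraries 5 were higher with MK-8722 in WT, 1 was lower for the torin1 response and 1 was lower for the MK-8722 response. The share of all genes called in each alternative was not counted.

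For the 9 lists together, glmTreat left 21 of 34 higher with torin1 in WT, 5 of 11 higher and 0 of 7 lower with MK-8722 in WT, 2 of 10 higher and 0 of 1 lower with MK-8722 in *tfeb tfe3* DKO, 4 of 10 higher and 2 of 7 lower for the torin1 response, and 0 of 3 higher and 0 of 2 lower for the MK-8722 response. Without a fold change limit these were 19 higher and 19 lower (MK-8722, WT), 25 higher and 10 lower (MK-8722, *tfeb tfe3* DKO) and 16 higher (torin1 response). No filter gave 4 lower for the torin1 response and 0 higher and 1 lower for the MK-8722 response, and a length offset gave 4, 0 and 1 there and 2 lower with MK-8722 in *tfeb tfe3* DKO. For the MK-8722 response RLE factors, DESeq2, the replicate block and the fit without those passages each gave 1 lower. Why these counts moved was not tested, and the share of all genes called was not counted here either.

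Replicate numbers did not mark shared passages, and same-numbered libraries correlated at -0.61 or above in WT and -0.32 or above in *tfeb tfe3* DKO, compared to 0.05 and 0.15 or above by passage. With a replicate block *Hoxa6* (adjusted p = 0.0706) and *Hoxc9* (0.0543) with torin1 in WT, *Hoxc4* with MK-8722 in WT (0.0612) and *Hoxa7* with torin1 in *tfeb tfe3* DKO (0.0516) lost their calls. A passage block lost *Hoxa6* (0.0535) and *Hoxc9* (0.0503) and gave 11 lower list genes with MK-8722 in WT, 3 lower in *tfeb tfe3* DKO, and 7 higher and 5 lower for the MK-8722 response.

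Without 1 library at a time, higher and lower Hox genes were 5 to 7 and 6 for torin1 in WT, 6 to 10 and 5 to 6 for torin1 in *tfeb tfe3* DKO, 2 to 4 and 2 to 3 for MK-8722 in WT, 0 to 1 and 1 to 2 for MK-8722 in *tfeb tfe3* DKO, 3 to 5 and 1 to 2 for the torin1 response, and 1 to 2 and 0 to 1 for the MK-8722 response.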
